A study of Mus musculus with 6 samples.

Results

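Macrophages are a minor population of the BM that matters to red cell production, and 10 genes that mark them or the islands they form with erythroblasts were followed by name: Mmp12, Gpnmb, Adgre1, Cd68, Csf1r, Lyz2, Mrc1, Vcam1, Siglec1 and Maf. They were taken by symbol from the 17060 genes listed in the deposited tables. The cells were lineage-negative BM cells of WT mice, that is, marrow from which cells with markers of mature lineages had been removed. They were kept in EPO-containing medium, which drives erythroid differentiation, with the vehicle DMSO or with NUP-17d, a small-molecule inhibitor of the pleckstrin family protein Plek2, for 48 hours. Each group held 3 samples. Strain, age and sex of the mice are not given in the labels, nor is whether samples of a group came from separate mice or cultures, so p-values measure the spread between these samples only.

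In an erythroblastic island, a central macrophage holds maturing erythroblasts through adhesion molecules such as VCAM1, which binds the α4β1 integrin of erythroblasts, and engulfs the nuclei that they shed. The macrophage returns iron from the heme it breaks down, and it depends on signals through the CSF1 receptor for its survival. Macrophages that take up much cargo have abundant lysosomes and their membrane proteins, which include CD68 and GPNMB.

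The promoters of Gpnmb, Mmp12 and Cd68, the members with the lowest p-values for a rise with NUP-17d, are shown first so that the letters upstream of genes that moved the same way can be compared. RefSeq promoter windows were at hand for 5 of the 10 members (Mrc1, Gpnmb, Mmp12, Lyz2 and Cd68), with 2 starts for Mmp12. Each line gives the 250 bases upstream of a start in build GRCm38.p6, read 5′ to 3′ on the strand of the gene. The Gpnmb window is chr6:49036268-49036517 on the plus strand, those of Mmp12 are chr9:7344147-7344396 and chr9:7347124-7347373 on the plus strand, and that of Cd68 is chr11:69666171-69666420 on the minus strand. Capitals mark matches to any of 5 motifs searched on both strands.
Gpnmb: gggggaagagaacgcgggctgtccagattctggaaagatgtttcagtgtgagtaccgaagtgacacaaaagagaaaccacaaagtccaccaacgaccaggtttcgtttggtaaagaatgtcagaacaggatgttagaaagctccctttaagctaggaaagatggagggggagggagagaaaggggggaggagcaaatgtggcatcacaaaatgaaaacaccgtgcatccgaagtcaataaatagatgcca
Mmp12, first start: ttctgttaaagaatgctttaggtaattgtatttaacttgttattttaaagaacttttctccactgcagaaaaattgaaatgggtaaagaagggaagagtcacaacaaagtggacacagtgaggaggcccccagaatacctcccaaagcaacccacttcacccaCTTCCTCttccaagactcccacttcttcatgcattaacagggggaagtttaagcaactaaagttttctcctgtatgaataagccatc
Mmp12, second start: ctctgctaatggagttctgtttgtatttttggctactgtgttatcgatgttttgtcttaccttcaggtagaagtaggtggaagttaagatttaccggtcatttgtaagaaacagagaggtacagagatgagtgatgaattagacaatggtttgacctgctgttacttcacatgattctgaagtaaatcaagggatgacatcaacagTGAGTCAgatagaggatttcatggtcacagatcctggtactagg
Cd68: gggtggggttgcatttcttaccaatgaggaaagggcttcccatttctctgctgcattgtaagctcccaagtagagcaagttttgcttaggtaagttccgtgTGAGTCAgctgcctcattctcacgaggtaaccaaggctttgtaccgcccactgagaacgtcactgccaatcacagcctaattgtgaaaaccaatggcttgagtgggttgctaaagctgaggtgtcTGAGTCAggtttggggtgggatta

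The motifs were GAGGAAG for the myeloid factor PU.1, CACGTG for E-box factors such as MITF and TFEB, TGCTGA for the core of a Maf recognition element, AGATAA for GATA factors and TGANTCA for AP-1. The AP-1 letters TGAGTCA began 44 bases upstream of the second Mmp12 start, and 149 and 24 bases upstream of the Cd68 start. Of all 32851 windows of this length, 6.75% held an AP-1 match. PU.1 letters, read as CTTCCTC, began 87 bases upstream of the first Mmp12 start and 168 and 36 bases upstream of the Mrc1 start, against 10.6% of all windows with a match. The Lyz2 window held TGCTGA 125 bases upstream of its start, as did 16.1% of all windows somewhere in their length. No member window held CACGTG or AGATAA, which 6.02% and 9.99% of all windows did, and the Gpnmb window held none of the 5. These matches are letters only and say nothing of binding.

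The libraries held 20278433 to 20419018 expected counts and 14913 to 14951 listed genes with DMSO and 20076409 to 20170197 expected counts and 15251 to 15332 listed genes with NUP-17d, and the groups overlapped in neither. The 10 members took 0.385% to 0.436% of the counts with DMSO and 0.568% to 0.643% with NUP-17d. Expected counts estimate how many reads each gene gave and can be fractions. Hemoglobin genes took 18.3% to 20.3% of the counts with DMSO and 11.8% to 13.1% with NUP-17d. That leaves more reads for every other gene, so counts were corrected for composition with the TMM method. They are given as CPM, which scales each count by the product of the library total and the TMM factor of the sample. The factors differ between samples, so the CPM values of a sample do not add up to a common total. All 10 members had reads in all 6 samples and passed the filter on low counts, as did 12306 genes in all. The samples are labeled as erythroblasts, and all 18 erythroid markers examined were present, but so were markers of other cell types, which are given with the results they touch.

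Of the 10 members, 5 were higher with NUP-17d (Mmp12, Gpnmb, Cd68, Lyz2 and Mrc1), 1 was lower (Adgre1) and 4 did not pass the test (Csf1r, Vcam1, Siglec1 and Maf), at an adjusted p of 0.05 in edgeR's quasi-likelihood test. Over all tested genes, 16.4% were higher and 18.9% were lower. The median log2 fold change was 0.15 over the members and 0.014 over all tested genes. The 3 NUP-17d samples lay above the 3 DMSO samples in 5 members and below them in 0, against 22.8% and 23.2% of all tested genes. In bulk RNA, a change in the number of macrophages and a change in the RNA per macrophage cannot be told apart.

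**Figure D1:**
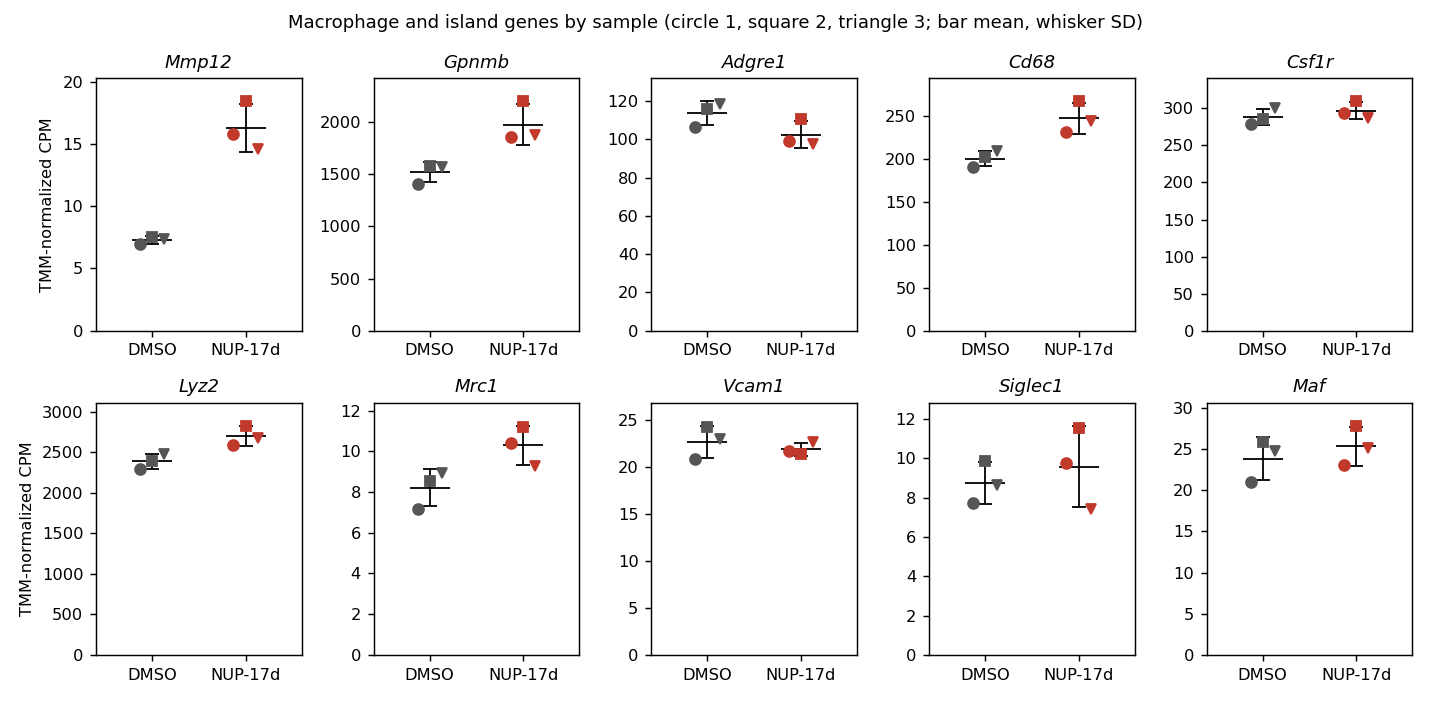
TMM-normalized CPM of the 10 genes (vertical axes, each from 0) in the 3 DMSO samples (gray) and the 3 NUP-17d samples (red), with the mean as a bar and the SD as a whisker. Mmp12 went from 7.30 to 16.3 with wide separation, Gpnmb, Cd68, Lyz2 and Mrc1 separated by less, and the groups overlapped in the other 5 genes; Adgre1, lower here, had the opposite sign when libraries were scaled by their totals only.

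Among the secreted proteins, Mmp12 (Entrez gene 17381, chr9:7344397-7360461) encodes macrophage metalloelastase, a protease that cuts elastin and other matrix proteins. It had 6.96, 7.54 and 7.41 CPM in DMSO samples 1, 2 and 3 and 15.9, 18.5 and 14.6 CPM in NUP-17d samples 1, 2 and 3. The lowest NUP-17d sample was well above the highest DMSO sample. Its mean went from 7.30 ± 0.303 to 16.3 ± 1.96 CPM (SD, n = 3), a rise of 2.23-fold (95% interval 1.96 to 2.55). The log2 fold change was 1.16 (SE 0.093, adjusted p = 1.03e-10), higher than in 99.8% of all tested genes. The counts behind it were modest, 126 to 143 with DMSO and 319 to 412 with NUP-17d.

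Lyz2 (Entrez gene 17105, chr10:117277541-117282272) encodes the M-type lysozyme, a bactericidal enzyme made by macrophages, monocytes and neutrophils. It had 2294, 2387 and 2478 CPM with DMSO and 2593, 2826 and 2678 CPM with NUP-17d. The groups did not overlap, but the step between them was small, a log2 fold change of 0.18 (SE 0.040, adjusted p = 0.000891). Its neighbor Lyz1 (Entrez gene 17110), the P-type lysozyme, is a near copy, and 195 of the 1267 stretches of 50 bases in the Lyz2 transcript (15.4%) also occurred in Lyz1, so that the counts of the pair may have been divided between them. Lyz1 rose by a like amount, from 218 ± 8.44 to 244 ± 14.7 CPM (log2 fold change 0.17, SE 0.041, adjusted p = 0.00217). Lyz1 made up 8.07% to 8.63% of the counts of the pair across the 6 samples, and the sum of the pair was 2511 to 2704 CPM with DMSO and 2821 to 3083 CPM with NUP-17d. Because neutrophils also make lysozyme, the 14 neutrophil markers are set beside it: 3 rose, 3 fell (2 of which, Camp and Fcnb, had 0.10 and 0.071 with totals only) and 8 did not pass, and their summed level was 4057 to 4239 CPM with DMSO and 4148 to 4425 CPM with NUP-17d. For comparison, 16.4% of all tested genes rose and 18.9% fell. The part of neutrophils in the Lyz2 result was not tested.

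Both lysosomal genes rose, and by similar factors. Gpnmb (Entrez gene 93695, chr6:49036518-49058182) encodes a transmembrane glycoprotein of macrophage lysosomes and phagosomes. Its 1409, 1577 and 1572 CPM with DMSO became 1856, 2202 and 1877 CPM with NUP-17d. No NUP-17d sample reached down to the DMSO range, and the fold change was 1.30 (log2 0.38, SE 0.051, adjusted p = 1.33e-06). Cd68 (Entrez gene 12514, chr11:69664213-69666170) encodes macrosialin, a heavily glycosylated protein of the lysosomal membrane. It had 191, 202 and 209 CPM with DMSO and 232, 268 and 244 CPM with NUP-17d. These groups were also separate, with a fold change of 1.23 (log2 0.30, SE 0.044, adjusted p = 3.56e-06). Within a sample, the Gpnmb to Cd68 ratio overlapped between the groups (difference of mean log2 ratios 0.075).

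The 3 receptors did not move together. Csf1r (Entrez gene 12978) encodes the receptor for CSF1 and IL-34, on which macrophages depend. It had 279, 285 and 300 CPM with DMSO and 294, 310 and 287 CPM with NUP-17d. The ranges overlapped, and the log2 fold change was 0.043 (95% interval -0.034 to 0.12, adjusted p = 0.401). Adgre1 (Entrez gene 13733, chr17:57358581-57483529) encodes F4/80, the adhesion receptor by which mouse macrophages are usually stained. It had 107, 116 and 118 CPM with DMSO and 99.0, 111 and 97.6 CPM with NUP-17d. NUP-17d sample 2 lay inside the DMSO range, and the gene was called lower with a log2 fold change of -0.15 (SE 0.046, adjusted p = 0.0126).

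The Adgre1 call was weak. It did not pass without DMSO sample 2 (-0.14, adjusted p = 0.0611), DMSO sample 3 (-0.12, adjusted p = 0.0946), NUP-17d sample 1 (-0.13, adjusted p = 0.0508) or NUP-17d sample 3 (-0.12, adjusted p = 0.0740). With libraries scaled by their totals only, its log2 fold change was 0.12 (adjusted p = 0.0520). Mrc1 (Entrez gene 17533, chr2:14229414-14332023) encodes CD206, the mannose receptor of tissue macrophages. It had 7.18, 8.54 and 8.91 CPM with DMSO and 10.4, 11.2 and 9.30 CPM with NUP-17d, the lowest treated value lying just above the highest control. It was called higher with a log2 fold change of 0.33 (SE 0.099, adjusted p = 0.0115), on 130 to 250 counts per sample. The call was lost without DMSO sample 1 (0.24, adjusted p = 0.0910), without NUP-17d sample 2 (0.26, adjusted p = 0.0673) and in DESeq2 (0.32, adjusted p = 0.0819).

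Neither adhesion gene of the island macrophage passed the test. Vcam1 (Entrez gene 22329, chr3:116110020-116129688), the ligand for α4β1 integrin, had 20.9, 24.3 and 23.0 CPM with DMSO and 21.7, 21.4 and 22.7 CPM with NUP-17d. All 3 treated values fell inside the DMSO range, and the log2 fold change was -0.052 (95% interval -0.18 to 0.077, adjusted p = 0.555), but 0.21 with totals only. Siglec1 (Entrez gene 20612, chr2:131067801-131086778) encodes sialoadhesin or CD169, a sialic acid-binding lectin by which marrow island macrophages are recognized. Its values were 7.73, 9.85 and 8.65 CPM with DMSO and 9.76, 11.6 and 7.42 CPM with NUP-17d, so the treated samples spanned the whole DMSO range. The log2 fold change was 0.13 with an interval of -0.12 to 0.38 (adjusted p = 0.432), which leaves room for a change as large as that of Gpnmb or Cd68. VCAM1 is also made by stromal and endothelial cells. Of 10 markers of those cells, Col3a1 had 0 counts in all 6 samples, Cxcl12, Cdh5 and Emcn were below the filter, and none of the 6 tested passed. Their summed level was 55.4 to 57.5 CPM with DMSO and 57.1 to 61.4 CPM with NUP-17d. Most of that sum came from Pecam1, with 40.0 to 41.5 CPM with DMSO and 40.6 to 42.8 CPM with NUP-17d. It therefore says little of the other markers, and the part of these cells in the Vcam1 values was not tested.

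Maf (Entrez gene 17132, chr8:115703253-115706894), a basic leucine zipper transcription factor of tissue macrophages, had 20.9, 25.8 and 24.8 CPM with DMSO and 23.1, 27.8 and 25.2 CPM with NUP-17d. The ranges overlapped for most of their width (log2 fold change 0.088, 95% interval -0.061 to 0.24, adjusted p = 0.370).

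The order of the levels was set by comparing FPKM, the count per transcript length and library total, divided by the TMM factor. Lyz2 was the most abundant at 2280 ± 88.4 with DMSO and 2586 ± 113 with NUP-17d, followed by Gpnmb at 394 ± 24.9 and 514 ± 50.5 and Cd68 at 160 ± 7.36 and 198 ± 14.4. Csf1r (73.2 ± 2.76 and 75.7 ± 2.96) and Adgre1 (34.6 ± 1.88 and 31.3 ± 2.19) came next. Vcam1 (6.59 ± 0.501 and 6.38 ± 0.200) and Maf (6.45 ± 0.697 and 6.87 ± 0.639) could not be ordered within their SDs. Mmp12 was in place 8 in both groups, at 1.99 ± 0.0807 and 4.47 ± 0.539. The lowest pair, Mrc1 (1.51 ± 0.172 and 1.91 ± 0.180) and Siglec1 (1.34 ± 0.161 and 1.47 ± 0.318), overlapped within their SDs. The rises thus took place both at the top and near the bottom of this range.

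**Figure D2:**
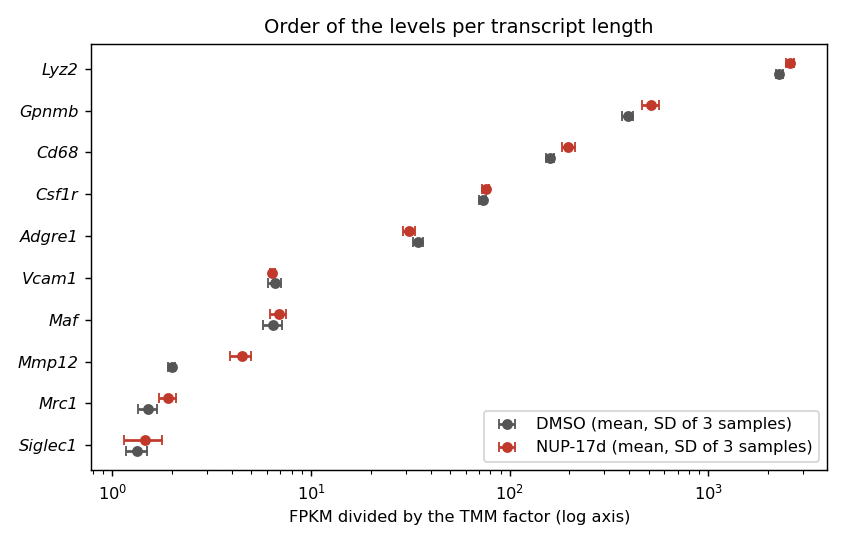
Level of each gene per transcript length (FPKM divided by the TMM factor, log axis), with the mean and SD of the 3 DMSO samples (gray) and the 3 NUP-17d samples (red). Levels run from 1.34 for Siglec1 to 2280 for Lyz2 with DMSO, and Mmp12 moves closest to its upper neighbors, from 1.99 to 4.47.

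The share of each gene relative to the others was then followed within each sample, since a ratio of 2 genes in 1 library does not depend on how libraries are scaled. The ratio separated the groups in 29 of the 45 pairs of members, against 44.2% of all pairs of tested genes, and pairs that share a gene are not independent. Mmp12 rose against each of the other 9 members without overlap, by 0.78 (log2) against Gpnmb up to 1.30 against Adgre1. The ratio to Adgre1 was higher without overlap by 0.53 for Gpnmb, 0.48 for Mrc1, 0.45 for Cd68 and 0.33 for Lyz2, and also for Maf and Csf1r, which were not called, by 0.24 and 0.19. Gpnmb, Cd68 and Mrc1 kept overlapping ratios among themselves. Likewise, the ratios among Csf1r, Vcam1, Siglec1 and Maf overlapped between the groups in every pair.

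**Figure D3:**
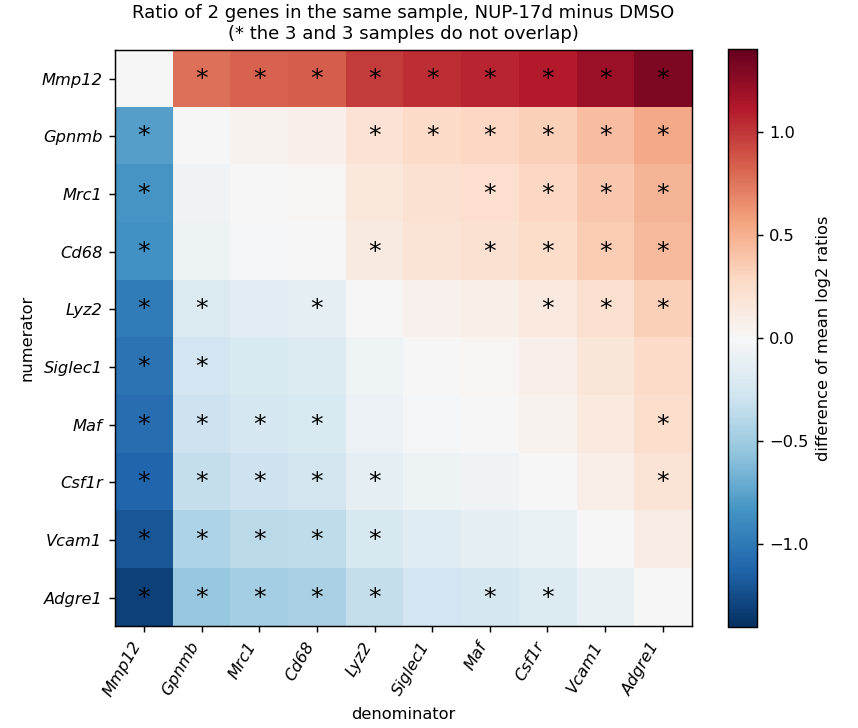
Difference between the groups in the mean log2 ratio of a row gene to a column gene measured in the same sample (color scale, red for a higher ratio with NUP-17d), with a star where the 3 NUP-17d and 3 DMSO ratios did not overlap. The Mmp12 row is starred against all 9 other genes, and 29 of 45 pairs are starred in all.

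Scaling turned the sign of the 2 members below 0, Adgre1 and Vcam1, and of no other member. With libraries scaled by their totals only, 9 members were higher and 0 lower, but 68.7% of all tested genes were then higher and 5.34% lower, and the median of all tested genes moved from 0.014 to 0.28. Under that scaling the log2 fold change was 1.43 for Mmp12, 0.65 for Gpnmb, 0.59 for Mrc1, 0.57 for Cd68 and 0.44 for Lyz2. Siglec1 (0.40), Maf (0.35), Csf1r (0.31) and Vcam1 (0.21) then passed the threshold, and Adgre1 (0.12) did not. Measured against the median of all tested genes, each member had nearly the same distance under both scalings, such as 1.15 and 1.15 for Mmp12, 0.029 and 0.029 for Csf1r and -0.16 and -0.16 for Adgre1. A change of scaling adds nearly the same amount to every gene, so these distances could hardly have differed.

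**Figure D4:**
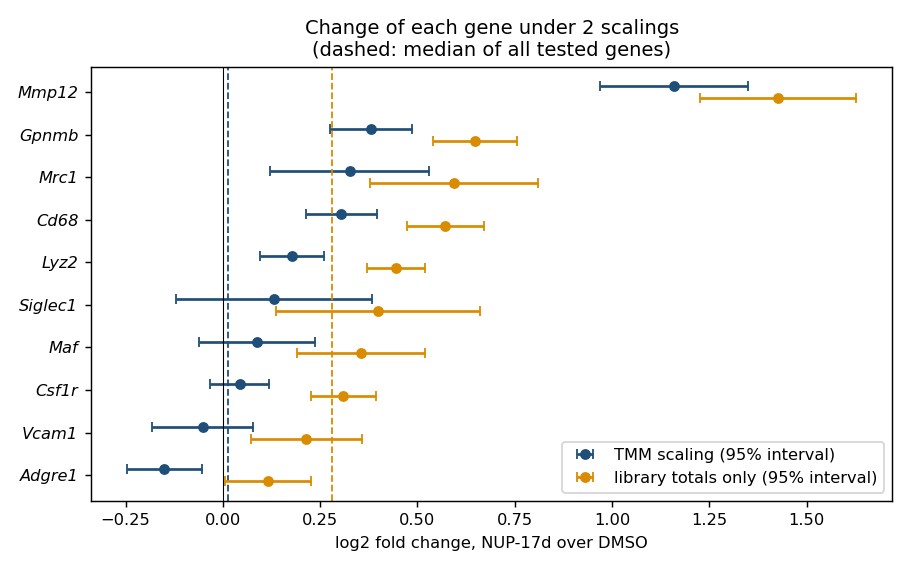
Log2 fold change of each gene, NUP-17d over DMSO, with its 95% interval under TMM scaling (blue) and under scaling by library totals only (orange), and dashed lines at the median of all tested genes (0.014 and 0.28). Every gene shifts by about the distance between the dashed lines, which turns Adgre1 (-0.15 to 0.12) and Vcam1 (-0.052 to 0.21) from below 0 to above it.

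The same samples stood at the edge of their group in most members. DMSO sample 1 was the lowest of its group in 10 of the 10 members, as it was in 32.7% of all tested genes, and NUP-17d sample 2 was the highest of its group in 9 of the 10, as it was in 32.2% of all tested genes. Summed over the members, the level was 4345, 4644 and 4751 CPM in DMSO samples 1, 2 and 3 and 5155, 5807 and 5262 CPM in NUP-17d samples 1, 2 and 3. The groups were therefore separate in the sum, to which Lyz2 and Gpnmb contribute most. Without DMSO sample 1, or without NUP-17d sample 2, Mmp12, Gpnmb, Cd68 and Lyz2 kept their calls and Mrc1 did not.

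Partners of the island were examined as a list of 19 genes for contact, engulfment and iron return, of which 18 were tested. Of these, 7 rose, 2 fell and 9 did not pass, and the list's median log2 fold change was 0.16. Over all tested genes, 16.4% were higher and 18.9% were lower. Hmox1, heme oxygenase 1, which opens the heme ring and frees its iron, had 153 to 158 CPM with DMSO and 322 to 333 CPM with NUP-17d (log2 fold change 1.08, SE 0.035, adjusted p = 3.07e-18). Other cells than macrophages can make it too, and which cells gave its reads was not tested. Slc40a1 (0.076), Spic (0.085) and Cd163 (0.18) of the same list, chosen after their values were seen, did not pass. Itgb5, a β chain of the αv integrins used in engulfment, rose by 0.54 on the log2 scale (adjusted p = 6.42e-10). For the integrin that binds VCAM1, the log2 fold change of the α4 chain Itga4 was 0.015 (95% interval -0.058 to 0.088). That of the β1 chain Itgb1 was -0.035 (-0.11 to 0.039), and neither passed. With totals only they were 0.28 and 0.23, and both passed. Neither chain is particular to erythroblasts, and which cells gave these reads was not tested.

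Further genes of this list were chosen after their values were seen. Gas6, a bridging ligand for engulfment receptors, rose by 0.81 on the log2 scale from 4.64 to 5.59 CPM with DMSO to 8.50 to 9.32 CPM with NUP-17d, and its receptor Axl rose by 0.22. Mertk, another receptor for Gas6, had a log2 fold change of 0.17 and did not pass (95% interval -0.028 to 0.37). Dnase2a, the lysosomal nuclease that digests the DNA of engulfed nuclei, rose by 0.31, Itgb3 by 0.32 and Maea, an adhesion protein on macrophages and erythroblasts, by 0.14. Itgb3 is also an integrin chain of megakaryocytes, and the part of those cells in its rise was not tested. Icam4, an erythroblast ligand for αv integrins, fell by 0.61 and Tgm2, a transglutaminase of phagocytes, fell by 0.15 but had 0.11 with totals only. Itgav, Spn, Palld, Cd163, Slc40a1 and Spic did not pass, and Timd4 was below the filter.

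The wider set of 32 macrophage identity genes split in both directions. Of the 30 tested, 11 rose, 6 fell and 13 did not pass, against 16.4% higher and 18.9% lower over all tested genes. The share that fell was thus close to that of all tested genes. Their median log2 fold change was 0.058, and their summed level was 2877 to 3025 CPM with DMSO and 3107 to 3401 CPM with NUP-17d. Lgals3, a galectin of phagocytes and the gene of this list with the lowest p, rose from 442 to 471 CPM to 537 to 631 CPM (log2 fold change 0.32, adjusted p = 3.43e-06). Trem2, a lipid-sensing receptor, rose by 0.37 (adjusted p = 2.47e-05), and its adaptor Tyrobp, chosen after its value was seen, rose by 0.25. Cybb, the catalytic subunit of the phagocyte NADPH oxidase, fell by 0.19 (adjusted p = 0.000198), with 0.082 under totals only, and Mpeg1, perforin-2, had 0.086 and did not pass (95% interval 0.0031 to 0.17). Others that rose included Spi1, Irf8, Mitf, Fcgr3, Fcer1g, Ms4a7 and Cd84, and those that fell were Fcgr1, Cd14, C1qa, Clec7a (0.085 with totals only) and Cd5l, named after their values were seen. The count that fell was 3 rather than 6 without DMSO sample 2, DMSO sample 3 or NUP-17d sample 1, and 3 in DESeq2. Vsig4 and Clec4f, markers of resident macrophages, were below the filter.

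The tested receptor genes set beside Csf1r rose, whereas Csf1r itself did not pass the test. Of 8 genes listed with the CSF1 and CSF2 axis, a list without Csf1r that also held Csf3r and Kit, 6 were tested, 5 rose and 0 fell. The shares over all tested genes were 16.4% and 18.9%. Csf2rb, the β chain shared by the receptors for GM-CSF, IL-3 and IL-5, rose by 0.26 on the log2 scale (adjusted p = 5.60e-07), Csf3r, the G-CSF receptor of neutrophils and their precursors, by 0.28, Csf2rb2 by 0.21 and Csf2ra by 0.17. Kit, chosen after its value was seen, was the fifth. Csf3r and Kit are receptors for ligands other than CSF1 and CSF2. Sharing of reads between Csf2rb and Csf2rb2 was not examined, so their rises may not be separate. The ligand Csf1, also chosen after its value was seen, had 7.25 to 7.48 CPM with DMSO and 6.32 to 7.91 CPM with NUP-17d and did not pass (log2 fold change -0.051, 95% interval -0.27 to 0.17, but 0.22 with totals only), and Il34 and Csf2 were below the filter.

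Mmp12 was set beside 19 other proteases and inhibitors that macrophages make. Of the 18 tested, 10 rose, 2 fell and 6 did not pass, with a median log2 fold change of 0.17. Among all tested genes, 16.4% rose and 18.9% fell. Ctsd, cathepsin D, rose by 0.35 (adjusted p = 1.18e-07), Ctsb by 0.12 (adjusted p = 0.0366) and Ctss by 0.16 (adjusted p = 0.0179), although the calls of Ctsb and Ctss were lost in DESeq2 and without either DMSO sample 1 or NUP-17d sample 2, and that of Ctsb also without DMSO sample 2 or DMSO sample 3. Mmp13, collagenase 3, moved against Mmp12 and fell by 0.996 on the log2 scale, from 10.5 to 11.5 CPM with DMSO to 4.84 to 6.09 CPM with NUP-17d (adjusted p = 1.30e-08). Of the 18, the rise of Mmp12 was not matched in size, the nearest being Ctsk at 0.38, which did not pass (95% interval -0.028 to 0.78). Lgmn, legumain, was the other gene that fell, by 0.23, but had 0.042 with totals only. Ctsk and Lgmn were chosen after their values were seen.

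Markers of the other cells in these cultures moved with the treatment as well. Their counts are to be read beside the 16.4% of all tested genes that rose and the 18.9% that fell. All 18 erythroid markers fell (median log2 fold change -0.67), although Klf1 had 0.028 with totals only. Of 11 dendritic cell markers 6 fell and 2 rose (median -0.55), and their summed level went from 1240 to 1300 CPM with DMSO to 823 to 919 CPM with NUP-17d. Most of that sum came from Cd74, H2-Aa and H2-Ab1, which all fell. These are genes of MHC class II presentation, which macrophages can express too. Cd74 alone had 739 to 765 CPM with DMSO and 470 to 529 CPM with NUP-17d. The sum therefore says little of the other markers on this list. Of 8 monocyte markers, 3 fell and 1 rose, with summed levels of 1394 to 1460 CPM with DMSO and 1347 to 1384 CPM with NUP-17d. Ccr2, the chemokine receptor of monocytes, fell by 0.28 on the log2 scale but had -0.016 with totals only. Mast cell and basophil markers (7 tested) fell in 3, 1 of which, Hdc, had 0.062 with totals only, and rose in 1, lymphoid markers (6 tested) fell in 2 and rose in 0, and megakaryocyte markers (8 tested) rose in 5 and fell in 1. Camp, Fcnb, Klf1 and Hdc were named after their values were seen. The part of any of these cells in the values of the members was not tested.

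**Figure D5:**
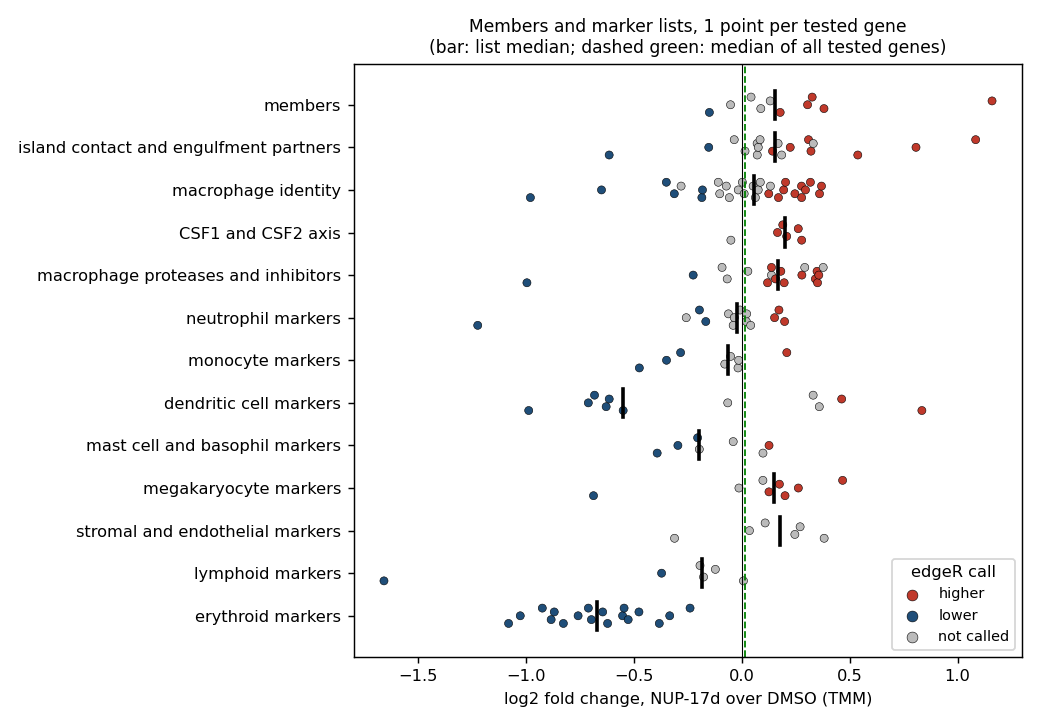
Log2 fold change of each tested gene, NUP-17d over DMSO under TMM scaling (horizontal axis), for the 10 members and 12 lists, colored by edgeR call (red higher, blue lower, gray not called), with list medians as bars and the median of all tested genes (0.014) as a dashed line. All 18 erythroid markers lie below 0 (Klf1 above it under totals only), the macrophage lists spread to both sides with medians from 0.058 to 0.16 among identity and island genes, and Mmp12 lies far right among the members; under totals only, Adgre1 and Vcam1 lie above 0.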

How the data were processed

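Poly(A) RNA of 6 samples (3 DMSO, 3 NUP-17d), grouped by their labels, was sequenced. The labels describe random priming and a DNBseq instrument, while the study's methods name a stranded Illumina kit, so strand use in counting is unknown. The authors deposited, per sample, an expected count for each gene with reads, not normalized, and the authors' FPKM, the count scaled by transcript length and library total. The aligner and counter are not given in the sources used here. The submitters' processing notes name build mm10, and gene positions and promoters are those of RefSeq on GRCm38.p6. A gene missing from a table was taken as 0.

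Expected counts were rounded, filtered with filterByExpr, scaled by TMM and compared over 12306 genes with edgeR 4.0.16 (R 4.3.3; glmQLFit and glmQLFTest, Benjamini-Hochberg adjustment over all of them, threshold 0.05), after the script was tested on simulated data. SE and 95% intervals are from that fit. Gene positions cover introns and exons. Alternatives were DESeq2 1.42.0, limma 3.58.1 (FPKM on a log2 scale with a pseudocount of 1 or of 0.1, genes of mean FPKM of at least 1), scaling by totals only, no filter, removal of hemoglobin genes, a replicate block and leaving out each sample.

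The members and all gene lists were chosen with earlier results of these data known. Named were the members, Lyz1, Hmox1 and, from each list, the 3 most abundant genes and the 2 with the lowest p, and other genes are stated as chosen after their values were seen. Some genes chosen by it are not reported here. With 3 samples against 3, an exact permutation test of 1 value cannot go below p = 0.1. Counts of PCR-amplified reads carry counting error, largest for genes of few reads.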

Additional observations from a re-analysis of the deposited data

How the results depend on the processing

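Mmp12, Gpnmb, Cd68 and Lyz2 kept their direction and call under all 13 alternatives. Counts depended most on scaling. Members higher (5) became 9 with totals only and 8 and 8 with limma on log2(FPKM + 1) and log2(FPKM + 0.1), and members lower (1) became 0, 0 and 0. In the same order, macrophage identity genes higher (11) became 21, 21 and 19 and lower (6) became 0, 1 and 0, island genes higher (7) became 15, 14 and 14 and lower (2) became 1, 1 and 1, and all genes called (4346) became 9115, 8458 and 8323. DESeq2 found 3 identity genes lower. Also in that order, the sign turned for Adgre1 (0.12, 0.12 and 0.12), Vcam1 (0.21, 0.19 and 0.22), Itgb1 (0.23, 0.23 and 0.24), Cybb (0.082, 0.084 and 0.085), Ly6c2 (0.22, 0.22 and 0.22) and F13a1 (0.25, 0.25 and 0.25), values in which no composition correction is made. Leaving out 1 sample gave 0 to 1 members lower and 3 to 6 identity genes lower; the other counts stayed within 1.5 times. The replicate numbers did not pair the samples (correlations of same-numbered deviations 0.057, -0.0046 and -0.0032). With the replicate block, 5 members were higher, 1 was lower and 4543 genes were called. Among the members and the genes named by rule, that fit changed the call of Mpeg1 only (0.085, adjusted p = 0.0461). Single genes chosen after their values were seen were not compared under the block. At this depth, Mmp12, Mrc1 and Siglec1 rest on the fewest reads.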
